A study of Mus musculus with 2 samples.

Results

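Enzymes and regulators of glycolysis, gluconeogenesis and glycogen metabolism were followed in the lower jaw of wild-type mouse fetuses and of fetuses that lack Myf5 and MyoD. They are a pathway list of 40 genes, of 19938 genes that the array annotation names, and the list sets muscle isoforms beside liver, brain or widely expressed isoforms of the same reaction. Of the 40, 37 had a probe set of their own, and 34 of these gave a signal above the floor on at least 1 array. Phkg1, Fbp1 and Fbp2 lay below the floor on both arrays. Gpi1 and Eno1 had no probe set under their name and Gapdh had only probe sets shared with other genes, so these 3 have no value of their own here.

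Mandibles were taken at E18.5 (embryonic day), and 6 µg of total RNA from each genotype was labelled and hybridised to an Affymetrix array. The wild-type sample was from BALB/c mice, and the other, called the double knockout here, was BALB/c null for Myf5 and Myod (Myf5-/-:MyoD-/-). These genes encode transcription factors that direct progenitors into skeletal muscle, and the series concerns the role of that muscle in the jaw. Each genotype has 1 array, the sources used here do not give the number of embryos in a sample, and no difference has a replicate check or a p-value.

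Glycolysis breaks glucose down to pyruvate and lactate, and glycogen is the store from which muscle draws glucose when it contracts. Several of these reactions are carried out by small gene families in which a muscle form stands beside forms of liver, brain or most tissues: glycogen phosphorylase, phosphofructokinase, phosphoglycerate mutase and enolase are the textbook cases. Other reactions rely on a single gene in nearly all cells, such as triosephosphate isomerase and phosphoglycerate kinase.

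All values are deposited log2 signals, given for the wild type first and the double knockout second, and a difference is the double knockout minus the wild type. The floor was the median of the annotated probe sets, 6.18 (wild type) and 6.19 (double knockout), and values below it were raised to it. A difference with 1 array at the floor is therefore a bound and is written as "at least". Signals were not compared between genes, since each probe set has its own brightness. The only error available is the disagreement between a gene's own probe sets (SD 0.23 over 532 genes), which holds no variation between animals. It is the SD of the gap between the differences of a gene's brightest probe sets, so it is wide for a single difference.

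The largest losses were in muscle isoforms such as Pygm, Pgam2 and Eno3. Of the 34 measured genes, 11 were lower in the double knockout by 2-fold or more, where 2.73% of all 10393 measured genes were. By the same measure 0 of the 34 were higher, where 0.510% of all were. Among the 30 genes with both arrays above the floor, 8 were lower by 2-fold or more, against 1.35% of the 9468 such genes overall. At 1.5-fold the counts were 18 lower, against a background of 5.11%, and 0 higher, against 3.07%. Lower by any amount were 26 of the 34, against 32.2% of all measured genes. Of these, 4 (Ppp1r3a, Pgam2, Ampd1 and Eno2) exceeded the floor in wild type only and so could only come out lower. Above the floor on both arrays, 9 of 9 muscle isoforms, 2 of 9 other isoforms and 11 of 12 remaining genes were lower, against 30.7% of all such genes. The median difference of the 34, bounds included, was -0.70, and that of all measured genes was 0.098. The 11 were Pygm, Gys1, Ugp2, Pgm1, Ppp1r3a, Slc2a4, Pfkm, Pgam2, Eno3, Gpd1 and Ampd1, of which 8 are muscle isoforms. Because whole jaws were sampled, fewer muscle cells and less of an RNA per cell cannot be told apart.

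**Figure D1:**
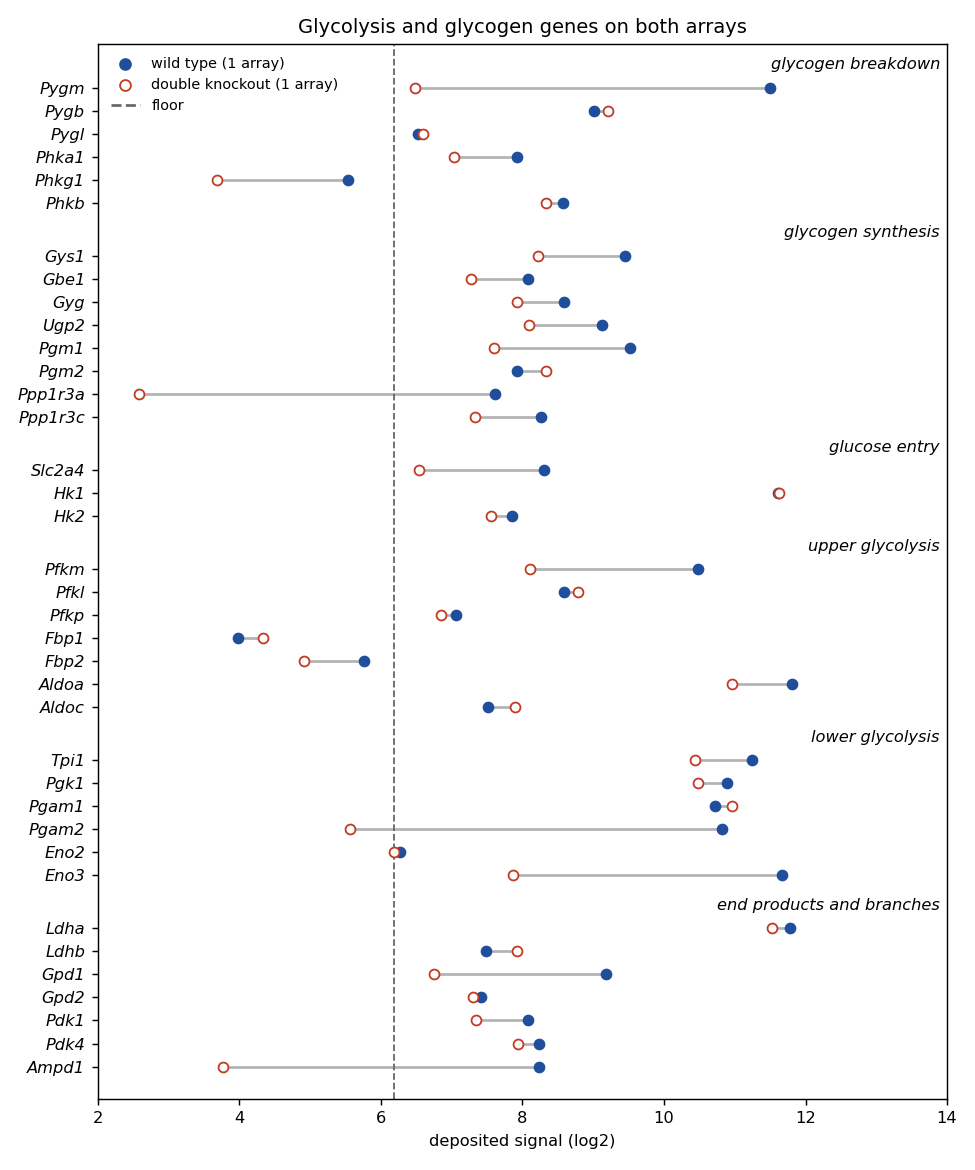
Deposited log2 signal (horizontal axis) of the 37 genes with a probe set of their own, by branch of the pathway, for wild type (filled points) and double knockout (open points), with the floor of 6.19 dashed. Pygm, Pgam2, Eno3, Ppp1r3a and Ampd1 have the longest lines, while Pygb, Pygl, Hk1, Eno2 and Gpd2 differed by 0.20 or less in size, Hk1 by its brighter probe set (the one annotated with RefSeq mRNAs differed by 0.37).

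Glycogen breakdown showed a wide separation between isoforms. Glycogen phosphorylase releases glucose 1-phosphate from glycogen, and its muscle form Pygm gave 11.50 in wild type and 6.48 in double knockout, a difference of -5.02 or 32.4-fold lower. About 3.09% of the wild-type signal was left. The brain form Pygb gave 9.01 and 9.21, a difference of 0.20, and the liver form Pygl gave 6.52 and 6.59, a difference of 0.07. Both of these were smaller than the SD between probe sets, which is wide for 1 difference. The sign of Pygl turned (-0.028) when the median difference of all genes was set to 0.

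Phosphorylase kinase switches phosphorylase on, and its subunits differed less. The muscle alpha subunit Phka1 gave 7.93 and 7.03, 1.86-fold lower. The beta subunit Phkb, which muscle and other tissues share, gave 8.57 and 8.33, a difference of -0.25. The muscle gamma subunit Phkg1, the catalytic chain, was listed at 5.54 and 3.68, both below the floor, so no difference is given for it. Of the 2 measured subunits, Phka1 was thus the one more than 1.5-fold apart.

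The glycogen synthesis genes were lower almost throughout. Of 8 measured, 7 were lower, where 32.2% of all measured genes were, and the median was -0.98. By 2-fold or more 4 were lower, where 2.73% of all measured genes were. Ppp1r3a, 1 of these 4, exceeded the floor in wild type only and so could only come out lower. Phosphoglucomutase interconverts glucose 6-phosphate and glucose 1-phosphate, and its 2 paralogs on the list differed in direction. Pgm1 gave 9.52 in wild type and 7.60 in double knockout, 3.79-fold lower. Pgm2, which acts mainly on phosphopentoses, gave 7.93 and 8.34, 1.33-fold higher. The older mouse literature uses these symbols the other way round; here the identifiers 72157 for Pgm1 and 66681 for Pgm2 fix which gene is meant.

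Downstream of phosphoglucomutase, Ugp2 makes UDP-glucose, the donor for glycogen. It gave 9.12 and 8.09, 2.04-fold lower and close to the 2-fold threshold. The self-glucosylating primer protein glycogenin, Gyg, gave 8.59 and 7.93, 1.58-fold lower. Gys1, the glycogen synthase of muscle and most tissues other than liver, gave 9.45 and 8.23, 2.33-fold lower, and the branching enzyme Gbe1 gave 8.08 and 7.27, 1.75-fold lower. These 4 genes therefore kept 42.8% to 63.2% of their wild-type signal, where Pygm kept 3.09%.

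Subunits that bring protein phosphatase 1 to glycogen activate the synthase. The striated muscle subunit Ppp1r3a gave 7.62 in wild type and a deposited 2.58 in double knockout, well under the floor, so it was at least 2.70-fold lower. Ppp1r3c, which is made in many tissues, gave 8.26 and 7.33, 1.91-fold lower. Thus the widely expressed subunit was lower as well, just short of 2-fold.

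Glucose entry differed in the insulin-responsive transporter and little in the hexokinases. Slc2a4 (GLUT4), which muscle and fat use to take up glucose, gave 8.31 and 6.54, 3.41-fold lower. With the floor at the 75th percentile its difference was -0.53, short of 2-fold. Hk2, the hexokinase typical of muscle and fat, gave 7.85 and 7.56, a difference of -0.29. Hk1, the widely expressed hexokinase, had 2 probe sets of its own. The brighter one gave 11.61 and 11.62, but it is annotated with 1 cDNA accession only. All 16 probe sets that name Hk1 with other genes also name the ribosomal protein gene Rpl17, and their wild-type signals ran from 9.97 to 11.97. The dimmer probe set is annotated with RefSeq mRNAs of Hk1 and gave 8.03 and 8.40, a difference of 0.37. With it, Hk2 differed from Hk1 by -0.66 on the log2 scale in place of -0.31.

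In upper glycolysis the muscle phosphofructokinase stood apart. Phosphofructokinase commits sugar to glycolysis, and Pfkm gave 10.48 and 8.11, 5.18-fold lower, with 19.3% of the wild-type signal left. The liver form Pfkl gave 8.58 and 8.79, a difference of 0.21. The platelet form Pfkp gave 7.06 and 6.84, a difference of -0.22. Both differences were smaller than the spread between probe sets, which is wide for a single difference. Fructose bisphosphatase runs the reaction backwards; the liver gene Fbp1 was listed at 3.98 and 4.33 and the muscle gene Fbp2 at 5.76 and 4.91, all below the floor.

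Aldolase splits fructose 1,6-bisphosphate. Aldoa, the main aldolase of muscle and of most fetal tissue, gave 11.81 and 10.96, 1.81-fold lower, while the brain-type Aldoc gave 7.52 and 7.90, 1.30-fold higher. Aldoa thus kept 55.1% of its signal.

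Lower glycolysis held a pair of the largest differences, in Pgam2 and Eno3. Phosphoglycerate mutase moves a phosphate within phosphoglycerate: the muscle form Pgam2 gave 10.82 in wild type and a deposited 5.57, under the floor, in double knockout and was at least 24.8-fold lower. The widely expressed Pgam1 gave 10.72 and 10.97, 1.18-fold higher. Its 3 probe sets differed by 0.24 to 0.25, but 2 of them hold identical values and are not independent readings. Pgam1 thus differed by about the spread between probe sets, at the step where Pgam2 was lost to below the floor.

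Enolase makes phosphoenolpyruvate. Its muscle form Eno3 gave 11.67 and 7.86, 13.99-fold lower, with 7.15% of the signal left. The neuronal form Eno2 was at the floor, with 6.28 in wild type and a deposited 6.19 in double knockout. The widely expressed form, Eno1, is not analysed here.

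The single-gene steps of the same stretch were lower by smaller amounts. Triosephosphate isomerase, Tpi1, gave 11.25 and 10.44, 1.76-fold lower. Phosphoglycerate kinase, Pgk1, gave 10.89 and 10.48, 1.33-fold lower, and its 3 probe sets, 2 of them identical, differed by -0.43 to -0.41. The 25 probe sets that name Gapdh together with 3 to 7 other genes differed by -0.42 to -0.21. All 25 were lower in the double knockout, but since each also names other genes these values cannot be given to Gapdh.

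At the end of the pathway lactate dehydrogenase turns pyruvate into lactate. Ldha, the chain that prevails in fast muscle and many fetal tissues, gave 11.78 and 11.52, a difference of -0.25, and kept 84.0% of its signal. Ldhb, the chain typical of heart, gave 7.49 and 7.93, 1.35-fold higher, and its other probe set gave 7.52 and 7.82. Both probe sets were higher in the double knockout.

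Among the branch enzymes, glycerol 3-phosphate dehydrogenase showed a split by compartment. The cytosolic Gpd1 gave 9.18 and 6.75, 5.41-fold lower, and the mitochondrial Gpd2, its partner in the glycerol phosphate shuttle, gave 7.41 and 7.30, a difference of -0.11. Gpd1 is also made in fat. Of 5 adipocyte markers, Adipoq, Plin1, Cidec and Lep were below the floor on both arrays and Fabp4 differed by -0.72, and the part of fat in the Gpd1 and Slc2a4 results was not tested.

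Pyruvate dehydrogenase kinases close the entry of pyruvate into mitochondria. Pdk1, a hypoxia-induced form, gave 8.07 and 7.34, 1.66-fold lower, and Pdk4, which fasting induces in muscle, gave 8.23 and 7.94, a difference of -0.29. Ampd1, the muscle AMP deaminase, removes AMP during contraction. It gave 8.23 in wild type and a deposited 3.76 in double knockout, under the floor, and was at least 4.13-fold lower. The bound fell short of 2-fold (-0.46) with the floor at the 75th percentile.

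Set out by isoform, the 14 genes classed as muscle forms and the 12 classed as other forms of the same steps lay mostly apart. The muscle class includes Aldoa, Ldha, Gys1 and Hk2, which other tissues also make. All 12 measured muscle forms were lower, against 32.2% of all measured genes, and 8 were lower by 2-fold or more, against 2.73%. Their median was -1.60, with a range from -5.02 to -0.25. Of the 12, Ppp1r3a, Pgam2 and Ampd1 exceeded the floor in wild type only and so could only come out lower. Of the 9 muscle forms above the floor on both arrays, 9 were lower, where 30.7% of all such genes were. By 2-fold or more 5 of the 9 were lower, against 1.35% of such genes, and the median was -1.22. Of the 10 measured other forms, 7 were higher and 3 lower, all by less than 2-fold, and the median was 0.13, with a range from -0.93 to 0.44. Higher by any amount were 66.9% of all measured genes, so 7 of 10 is near the background. The classes overlapped between Ppp1r3c (-0.93), the lowest of the other forms, and Ldha (-0.25), the highest of the muscle forms, with Phka1, Aldoa and Hk2 in between. The 14 listed genes without such a class comprised 12 measured genes, of which 11 were lower, 3 of them by 2-fold or more, with a median of -0.70.

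Within a step, the difference of the muscle form minus that of another form was taken for 19 pairs, of which 14 could be measured. Partners from outside the list (Phka2, Slc2a1, Ampd2, Ampd3) were used where the list has none. Pygm, Pfkm and Ampd1 each enter more than once, so the pairs are not independent. Ppp1r3a, Pgam2 and Ampd1 exceeded the floor in wild type only and so could only come out lower. No such contrast was computed for genes outside these pathways, so the counts have no background share. The contrast was negative in all 14 pairs and at least 2-fold in 10, with a median of -2.19. In the 9 pairs with both genes above the floor on both arrays it was at least 2-fold in 6, with a median of -2.16. It was -5.22 for Pygm against Pygb, -4.87 or beyond for Pgam2 against Pgam1, -2.58 for Pfkm against Pfkl and -2.23 for Slc2a4 against Slc2a1. Ampd1 differed from Ampd2 by -2.29 or beyond and Aldoa from Aldoc by -1.24.

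Against a further partner the contrast was -5.09 for Pygm and Pygl, -2.16 for Pfkm and Pfkp and -1.94 or beyond for Ampd1 and Ampd3. Eno3 against Eno2 gave -3.72, but Eno2 was at the floor.

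The contrast was below 2-fold in 4 pairs, 1 of them a bound. Ldha differed from Ldhb by -0.69, Phka1 from Phka2 by -0.49 and Hk2 from Hk1 by -0.31, which is 1.36 times the SD between probe sets. The value for Hk2 rests on the brighter probe set of Hk1, and with the one annotated with RefSeq mRNAs it was -0.66. Ppp1r3a differed from Ppp1r3c by -0.50 or beyond, where the deposited values without a floor gave -4.10. The 5 pairs with Phkg1, Gys2, Slc2a3, Fbp1 or Eno1 could not be measured.

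**Figure D2:**
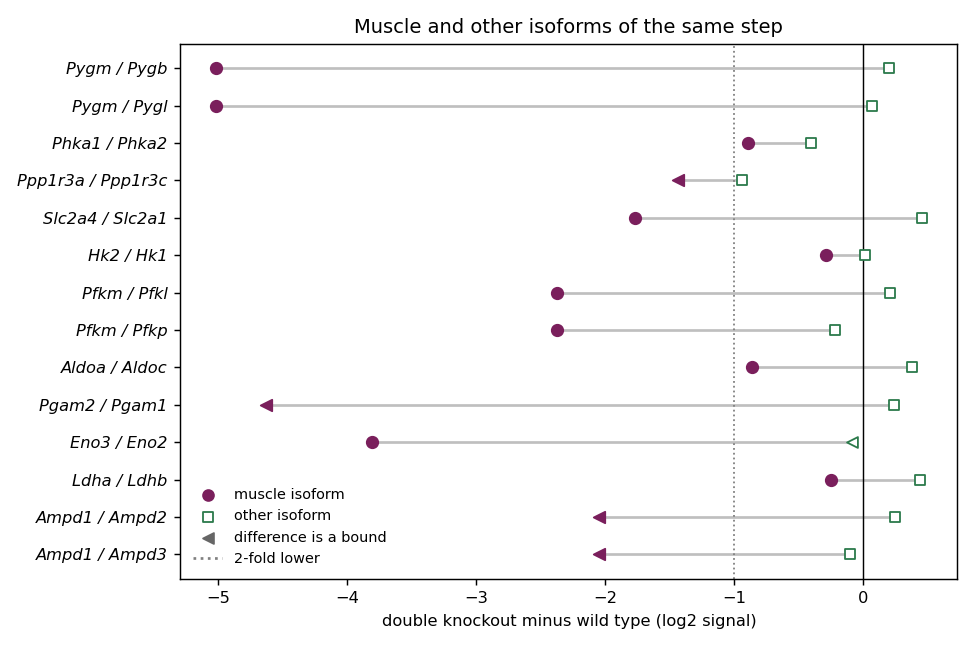
Difference in log2 signal, double knockout minus wild type, for the muscle form (filled) and another form (open) in the 14 measured pairs; arrowheads are bounds and the dotted line marks 2-fold lower. The muscle form lies to the left in every pair. Contrasts were -5.22 for Pygm and Pygb, -4.87 or beyond for Pgam2 and Pgam1 and -0.31 for Hk2 and Hk1 (brighter Hk1 probe set).

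Promoter sequence is shown for Pygm, Pgam2, Eno3 and Pfkm, the muscle forms with the largest floored differences among steps that have another listed form, because the Myf5 and MyoD proteins bind E-boxes. Ppp1r3a, whose deposited difference of -5.04 the floor reduces to a bound of -1.43, is not shown. Each line gives the 250 bases before the gene start from RefSeq (GRCm38.p6), 5′ to 3′ on the gene's strand. Capitals mark every CANNTG, the E-box, which reads the same on both strands, and every match of the MEF2 motif on either strand. The windows are chr19:6384158-6384407 (plus strand) for Pygm, chr11:5803797-5804046 (minus strand) for Pgam2, chr11:70656926-70657175 (plus strand) for Eno3 and chr15:98092339-98092588 (plus strand) for Pfkm, whose entry is the first of 4 listed starts.
Pygm: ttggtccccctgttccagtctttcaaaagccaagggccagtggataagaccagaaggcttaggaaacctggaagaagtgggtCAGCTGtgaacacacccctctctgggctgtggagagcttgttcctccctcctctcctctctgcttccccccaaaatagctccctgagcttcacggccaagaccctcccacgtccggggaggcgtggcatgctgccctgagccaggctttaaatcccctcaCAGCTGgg
Pgam2: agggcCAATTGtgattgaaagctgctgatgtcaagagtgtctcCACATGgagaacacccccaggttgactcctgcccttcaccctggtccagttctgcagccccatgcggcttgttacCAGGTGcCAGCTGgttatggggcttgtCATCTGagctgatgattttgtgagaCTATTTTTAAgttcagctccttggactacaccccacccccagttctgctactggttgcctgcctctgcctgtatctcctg
Eno3: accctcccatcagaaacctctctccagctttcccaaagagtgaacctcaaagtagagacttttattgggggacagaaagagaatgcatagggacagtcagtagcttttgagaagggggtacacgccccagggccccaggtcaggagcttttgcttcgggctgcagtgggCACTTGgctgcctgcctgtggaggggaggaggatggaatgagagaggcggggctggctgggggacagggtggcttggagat
Pfkm: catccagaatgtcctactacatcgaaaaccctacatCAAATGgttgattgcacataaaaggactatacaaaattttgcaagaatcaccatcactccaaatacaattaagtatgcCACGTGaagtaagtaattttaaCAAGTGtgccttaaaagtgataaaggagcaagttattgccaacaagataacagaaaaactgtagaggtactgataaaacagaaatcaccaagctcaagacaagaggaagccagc

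Pygm held 2 E-boxes, both CAGCTG, 168 and 8 bases before the start. Pgam2 held 5, with the form CAGCTG 125 bases before the start, and 1 MEF2 match at 80 bases. Eno3 held 1 E-box and the Pfkm window 3, all of other forms. An E-box of any form occurred in 66.2% of all 32817 windows of this length. It occurred in 16 of 18 windows of the muscle forms and in 7 of 16 windows of the other forms. The 18 include 4 windows of Pfkm and 3 of Aldoa.

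The form CAGCTG, which is counted within CANNTG, was found in 6 of 18 windows of the muscle forms (33.3%), in 1 of 16 windows of the other forms (6.25%) and in 13.0% of all windows. It lay in 5 of the 12 windows of the genes at least 2-fold lower, those of Pygm, Pgam2, Gys1, Ppp1r3a and Ugp2. A MEF2 match was found in 2 of the 50 listed windows (4%), those of Pgam2 and Ppp1r3a, which is near the 2.92% of all windows. Of the 40 genes, 37 had at least 1 window, and Slc2a4, Gpd1 and Ampd1 had none in the table. These are matches of letters, with no measurement of binding.

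Beyond the list, 87 further genes of the same pathways were examined, of which 81 had a probe set and 62 were measured. Lower by 2-fold or more were 6 of the 62 (2.73% of all measured genes) and higher 0 (0.510%), and their median was -0.070. Of the 6, 4 belong to the handling of AMP, next to Ampd1. The adenylate kinase Ak1, which converts ADP to ATP and AMP, gave 10.07 and 7.68, 5.23-fold lower. Adssl1, the muscle adenylosuccinate synthase that works in one cycle with Ampd1, gave 9.31 and 6.93, 5.20-fold lower, and its widely expressed counterpart Adss gave 8.13 and 8.38.

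The AMP-activated protein kinase, an energy sensor, also had subunits past the 2-fold threshold. Its catalytic subunit Prkaa2, prominent in muscle, gave 8.02 and 6.54, 2.79-fold lower, against -0.023 for Prkaa1. The muscle gamma subunit Prkag3 gave 7.34 and a deposited 5.40, at least 2.23-fold lower, against -0.035 for Prkag1 and 0.14 for Prkag2. Prkab2 was 1.71-fold lower and Prkab1 1.22-fold higher. Prkab2 was short of 2-fold, and Prkag3 exceeded the floor in wild type only and so could only come out lower. The paralogs beside Prkaa2 and Prkag3 were chosen after their values were seen.

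The lactate exporter of glycolytic muscle Slc16a3 gave 9.28 and 7.98, 2.46-fold lower, and the related Slc16a7 was 1.54-fold higher. Pdk2 gave 9.61 and 8.43, 2.27-fold lower, and was the most different gene of pyruvate entry. All 5 subunits of the pyruvate dehydrogenase complex were lower, where 32.2% of all measured genes were, but none by 2-fold. Their differences ran from -0.72 for Dlat to -0.36 for Pdhx. Pdhb gave a bound, since it exceeded the floor in wild type only, and could only come out lower. The 10 measured genes of pyruvate entry had a median of -0.56, and Pdk3 (0.38) was the only one of them higher. In the NADH shuttle list all 5 genes were lower, against the same 32.2%, with a median of -0.21, led by Got1, 1.74-fold lower. The rest of that list differed less: Got2 (-0.28), Mdh1 (-0.21), Mdh2 (-0.19) and Gpd1l (-0.03).

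The other pathway lists lay near the median of all genes. The 12 measured further glycogen genes had a median of 0.03. Those measured on both arrays ran from -0.41 for Phka2 to 0.53 for Ppp1r3b, a phosphatase subunit prominent in liver. Of 3 measured further glycolysis genes, the pyruvate kinase Pkm was 1.36-fold lower and the ADP-dependent glucokinase Adpgk 1.08-fold higher. Pfkfb2 and Pck2 were 1.36-fold and 1.34-fold higher and led the fructose 2,6-bisphosphate and gluconeogenesis lists, whose 5 measured genes were all higher, as were 66.9% of all measured genes. Among 7 regulators, Txnip was 1.36-fold higher and Tbc1d1 1.24-fold lower.

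**Figure D3:**
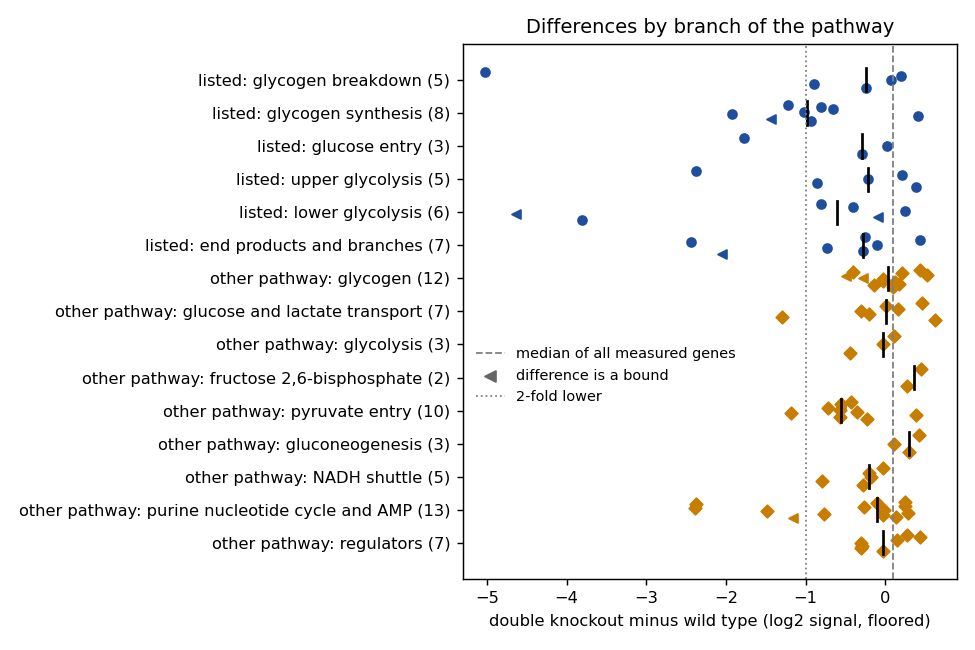
Difference in log2 signal, double knockout minus wild type, for the 34 measured listed genes (points) and the 62 measured further pathway genes (diamonds) by branch, with the number measured in parentheses; arrowheads are bounds, bars are medians, and the lines mark the median of all genes (0.098) and 2-fold lower. Glycogen synthesis has the lowest median among the listed branches, -0.98, and pyruvate entry the lowest among the others, -0.56. The listed branches hold muscle and other forms in unlike numbers, so their medians do not rank them by loss. Glycogen breakdown, which holds Pygm, has a median of -0.25.

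The tissue on the 2 arrays differed in composition beside these results. Of 12 skeletal muscle markers, 12 exceeded the floor in wild type and 1 (Des) in double knockout, and the log2 of their summed signal was 14.92 and 8.67. All 6 salivary gland markers were at least 2-fold higher, where 0.510% of all measured genes were, with summed signals of 10.39 and 13.85. Of these, Prol1 exceeded the floor in double knockout only and so could only come out higher. All 5 markers of mandible mesenchyme were higher by 0.31 to 0.84, none of them by 2-fold. Higher by any amount were 66.9% of all measured genes. The neuron list (5 markers, summed 8.92 and 9.23) and the glia list (3 with a probe set, 7.83 and 8.12) had slightly higher sums, and the part of any of these tissues in the higher values of Ldhb, Pgm2 and Aldoc was not tested. Hepatocyte markers were below the floor on both arrays (0 of 4 above it), as were 4 of 5 cardiac markers, the exception being Tnnt2, which fetal skeletal muscle also makes (9.88 and 5.90). The erythroid (median -0.36), cartilage (0.49), osteoblast (0.22), epithelium (0.11), endothelium (0.08), smooth muscle (-0.38) and macrophage (-0.39) lists had no member 2-fold apart.

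The targeted genes gave 6.31 and a deposited 4.95 for Myf5 and 7.14 and 6.49 for Myod1, lower in the double knockout in both cases. Myf5 exceeded the floor in wild type only and so could only come out lower, here by at least 1.09-fold. The position of their probe sets relative to the deletion is not stated, so the remaining Myod1 signal checks nothing. Sex-linked genes also differed, with Eif2s3y of the Y chromosome at 2.38 and 6.55 and Xist at 10.87 and 10.22. Phka1 and Pgk1 are X-linked, as are Phka2, Pdha1 and Pdk3, and the part of sex in their differences was not tested.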

How the data were processed

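The authors deposited 1 table of log2 values, 35557 probe sets by 2 arrays; the base was read from the values, which ran from 1.42 to 13.35. The submitters' processing notes name MAS5; background correction, normalization between arrays and genome build are not given in the sources used here. The arrays were compared as deposited. GEO's platform annotation, which can be old, gave 21789 probe sets 1 gene, 1621 several and 12147 none; only the first entered gene values. All 37 listed genes with a probe set matched RefSeq (GRCm38.p6) by identifier, with 0 symbols changed.

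A gene was represented by its brightest probe set (mean linear signal), with a floor at the 50th percentile of annotated probe sets. Genes at least 2-fold apart were counted; with 1 array per genotype there is no test, and the number of arrays limits the precision. All listed genes are named, and further pathway genes where 2-fold apart or with the largest difference of their sublist in a direction; paralogs beside them were chosen after their values were seen. The genes, isoform classes and lists were chosen with earlier results of these data known. Counting was tested on simulated data. Python 3.11.15 and pandas 2.3.3 were used. Alternatives were other scalings, floors, probe set rules and fold thresholds.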

Additional observations from a re-analysis of the deposited data

How the results depend on the processing

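Each listed gene that was at least 2-fold lower had 1 probe set of its own, so the probe set rules could not change its value. A floor cannot turn the sign of a difference. Setting the median difference to 0 moves values by 0.098, too little to turn a 2-fold difference. That none of these genes turned to higher is therefore no check of their direction. The count of listed genes at least 2-fold lower was 8 to 12 over the scalings, floors and probe set rules, 8 at a 3-fold threshold and 18 at 1.5-fold, where 5.11% of all measured genes were lower; the count of those higher was 0 throughout. The floor at the 75th percentile (29 listed genes measured) shortens bounds by construction and ended the calls of Slc2a4 (-0.53), Ampd1 (-0.46) and Ppp1r3a (then under the floor in both samples): the median was then -0.41 for the listed genes, -0.86 for the muscle forms and -0.99 for the isoform contrast. Further pathway genes at least 3-fold lower numbered 2, and 1 was at least 1.5-fold higher. Signs changed for Pygl (-0.028) and Hk1 (-0.081) with the median difference set to 0 and for Hk1 (-0.010) after quantile normalisation. With the RefSeq probe set of Hk1 the median of the other forms was 0.20. Without identical pairs, the SD between probe sets was 0.23 over 522 genes. The probe set of Hk1, the handling of identical pairs and the counts over genes above the floor on both arrays were chosen after seeing the data. No paired analysis was possible because each genotype has 1 array.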
